A study of Mus musculus with 32 samples.

Results

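Ribosome-associated RNA of the spinal cord was compared between XX mice of 18 and of 12 months. The libraries were chosen by the sex and the age in the sample labels, which gave 5 libraries of each age, 10 of the 32 in the series. The series followed cholinergic neurons of both sexes through adult life and old age. Both age groups shared 1 genotype, Chat Cre; Ribotag, on a mixed genetic background, and the labels give no treatment. In these mice the Chat promoter drives Cre in cells that make acetylcholine, from 1 hemizygous copy, and Cre switches on a hemagglutinin-tagged ribosomal protein L22 (HA-Rpl22). Tagged ribosomes were pulled down from spinal cord lysate and the RNA bound to them was sequenced. The driver marks every Chat-expressing cell of the cord, so interneurons and preganglionic autonomic neurons are included beside motor neurons. The labels call the libraries replicates without saying whether each came from its own mouse, so the p-values below measure the spread between these libraries.

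Spinal motor neurons are the cholinergic cells that make muscles contract. They synthesise acetylcholine with choline acetyltransferase (Chat), load it into vesicles with the transporter encoded by Slc18a3 and take choline back up through Slc5a7. Their axons are among the longest cells carry, so they depend on axonal transport, neurofilaments and mitochondrial ATP, and after axon damage they switch on a known set of genes that includes Atf3, Sprr1a and Npy. RNA on ribosomes reports which messages a cell is translating, and in a bulk pull-down fewer cells of a type and less RNA per cell cannot be told apart.

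Library totals ran from 14366779 to 26229439 counts at 12 months and from 14510780 to 29547303 at 18 months, and their means did not differ beyond the spread (exact permutation test, two-sided, p = 0.524, where the smallest possible p was 0.00794). The lower range of totals, under 17995911 counts, held 12-month replicate 3 and 18-month replicates 1, 2 and 3. A number in the headers of the deposited columns was the same in all 12-month libraries and in 18-month replicate 5 and differed in the others. Its meaning is not given in the sources used here, so it and age largely cannot be told apart. The sex label was checked on Ddx3y and Xist. Ddx3y, on the Y chromosome, had normalized counts of at most 10.2 in the 10 libraries against 1514 to 3298 in 17 libraries of males, and Xist, the RNA that silences 1 X chromosome, was present at 77.9 to 365 and 35.0 to 655 normalized counts at 12 and 18 months. The males reached 61.9 for Xist, above the lowest of the 10 libraries, so the label rests on Ddx3y. Transmitter and motor neuron genes of the labelled cell type were present. Chat, whose promoter drives the tag, ran from 177 to 2132 normalized counts in the 10 libraries. Per kilobase of exon, Prph, a neurofilament of motor and sensory neurons, stood at 778 and 663 CPM (counts scaled to the library total) at 12 and 18 months, and Slc18a3 at 229.9 and 289. RNA of glia was present as well, with the astrocyte gene Gfap at 40.5 and 33.0 on that scale.

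No gene passed the threshold between 18 and 12 months. Among 17481 genes that averaged 5 counts or more, 0 (0%) had an edgeR adjusted p under 0.05 (quasi-likelihood test), and the smallest adjusted p was 0.0689. At an unadjusted p under 0.05 there were 2952 genes, 1500 higher (8.58%) and 1452 lower (8.31%) at 18 months. Normalized counts of the ages did not overlap for 146 higher (0.835%) and 141 lower (0.807%) genes. Most differences were small: the median absolute log2 fold change was 0.22 over all genes tested and 0.38 over the 287 genes whose ages did not overlap. The number of genes at an unadjusted p under 0.05 rested on single libraries. It was 1732 without 12-month replicate 2, 1701 without 12-month replicate 3, 1388 without 18-month replicate 3 and 1474 without 18-month replicate 4, but 4742 without 18-month replicate 1 and 4644 without 18-month replicate 2. Within the higher range of totals (4 libraries of 12 and 2 of 18 months) 0 genes passed and 3392 had an unadjusted p under 0.05, and with a term for the range these counts were 0 and 2670. The lower range has 1 library of 12 months and gave no value. Other tools set the line elsewhere on the same counts. The Wald test of DESeq2 called 27 genes higher (0.154%) and 19 lower (0.109%), and limma voom with sample quality weights called 2677 higher (15.3%) and 2965 lower (17%). The lists and genes below are therefore described by their levels, with edgeR's adjusted p as the test.

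The higher genes with the smallest p among those that kept the ages apart included a sterol enzyme, a pair of kinase phosphatases and a transcription factor of cytokine signalling. By rule, 12 genes per direction were taken by the smallest unadjusted p among those with no overlap between the ages, and their adjusted p lay between 0.164 and 0.223. Since the absence of overlap chose them, it is not a result about them. Lss, which makes lanosterol in cholesterol synthesis (chromosome 10, 76531588 to 76557138, plus strand, GRCm38), had normalized counts of 471, 313, 291, 470.4 and 402 at 12 months and 508, 532, 763, 603 and 628 at 18 months. The log2 fold change was 0.64 ± 0.15 (SE, as in all log2 fold changes given with an error below). The highest 12-month libraries, replicates 1 and 4, lay under 18-month replicate 1, the lowest of its age. Dusp5, a phosphatase that inactivates the kinase ERK (chromosome 19, 53529109 to 53542431, plus strand), measured 56.2, 37.1, 50.9, 47.5 and 56.5 at 12 months and 106, 140.4, 77.8, 73.2 and 94.9 at 18 months, with a log2 fold change of 0.98 ± 0.23. Its 2 highest libraries were 18-month replicates 2 and 1. Dusp1, a phosphatase of several MAP kinases and an early response gene (chromosome 17, 26505590 to 26562128, minus strand), measured 634, 529, 534, 453 and 697 at 12 months and 980.4, 1091, 905, 815 and 888 at 18 months. The lowest 18-month library stood well above the highest 12-month library, and the log2 fold change was 0.71 ± 0.18. Stat3, a transcription factor downstream of cytokine receptors that is also used after axon injury, measured 3238, 3086, 3216, 3488 and 3484 at 12 months and 3932, 3733, 5075, 4975 and 4019 at 18 months (log2 fold change 0.40 ± 0.10). Rasgrf2, an exchange factor for Ras, measured 1309.6, 1039, 1026, 1311 and 1281 at 12 months and 1523, 1581, 1749, 1640.0 and 1722 at 18 months (log2 fold change 0.46 ± 0.12).

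Among the other higher genes, Ubr4, a ubiquitin ligase, and Prkdc, the catalytic subunit of the DNA repair kinase DNA-PK, were led by 18-month replicate 3. Ubr4 measured 2626, 2577, 2087, 2479 and 2762 at 12 months and 3113, 2859.6, 6083, 4259.6 and 3170.4 at 18 months (log2 fold change 0.64), and Prkdc 116, 86.0, 65.2, 95.9 and 85.6 at 12 months and 117, 123, 214, 149 and 157 at 18 months (log2 fold change 0.75). Atp6v0a1, a subunit of the proton pump that acidifies lysosomes and synaptic vesicles, was the most abundant of the 12, at 8149.8 ± 525 (SD, n = 5) and 10688 ± 1593 (SD, n = 5). Its log2 fold change of 0.39 ± 0.09 was close to those of the repressor Cic (0.34), the zinc finger factor Zbtb7b (0.40), the kinase Stk35 (0.47) and the ciliary gene Cplane1 (0.48). Zbtb7b showed how narrow the gap was, with 383 to 533 at 12 months and 539 to 684 at 18 months. Summed exon length had a median of 6466 bases over the 146 non-overlapping higher genes, 2324 over the 141 lower ones and 3917 over all genes tested.

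On the lower side, Cryab, a small heat shock protein that keeps other proteins from aggregating (chromosome 9, 50751325 to 50756636, plus strand), was at the head. It measured 3208, 2714, 2670.4, 2477 and 2711 at 12 months and 1719, 2062, 1309.7, 1446 and 1539 at 18 months, and the log2 fold change was -0.77 ± 0.16 with an adjusted p of 0.164 in edgeR's test. The lowest 12-month library, replicate 4, lay above the highest 18-month library, replicate 2. Thrsp, a regulator of fatty acid synthesis (chromosome 7, 97412938 to 97417730, minus strand), measured 2387, 2467, 2771, 2216 and 2288 at 12 months and 1892, 1807, 1461, 1687 and 1222 at 18 months (log2 fold change -0.59 ± 0.12). Gadd45b, a stress-inducible gene linked to DNA demethylation, measured 634, 593, 830.2, 682 and 690.1 at 12 months and 581, 464, 466, 472 and 401 at 18 months (log2 fold change -0.53 ± 0.12), with 18-month replicate 1 next to the 12-month range. Cdk2ap1, a growth suppressor that binds Cdk2, had the narrowest 18-month range of the 24 genes relative to its level, from 1136 to 1203 against 1314 to 1663 at 12 months.

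Sncb, which encodes the synaptic protein beta-synuclein, was the most abundant of the lower 12, with 7328, 8379, 8797, 7625 and 7409.5 at 12 months and 6595, 6650.3, 5753, 5421 and 5964 at 18 months (log2 fold change -0.38 ± 0.10). Polg2, the accessory subunit of the mitochondrial DNA polymerase, was the least abundant, with 61.8, 75.0, 62.0, 65.4 and 55.5 at 12 months and 46.7, 48.8, 42.3, 34.5 and 26.2 at 18 months (log2 fold change -0.71 ± 0.19). The other 6 had log2 fold changes from -0.53 to -0.31. They were Tmem243, Vcpkmt, a methyltransferase that modifies the ATPase VCP, Ntpcr, Ovca2, Txndc12, a thioredoxin of the endoplasmic reticulum, and Trnau1ap, which takes part in selenoprotein synthesis. Exons of 10 of the 24 genes overlapped those of another gene, among them Cryab with Hspb2, Ovca2 with Dph1, Stat3 with Stat5a and Dusp1 with Ergic1. Lss and Dusp5 also had such an overlap, each with a gene known by a clone name. Since the counting's use of strand is not given in the sources used here, those values may hold reads of the neighbour. The DESeq2 Wald test called 20 of the 24 and limma voom 24. Over all genes tested, DESeq2 called 0.154% higher and 0.109% lower, and limma voom 15.3% and 17%. Since the 24 were chosen by their p on the same counts, these calls are no separate result about them.

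**Figure D1:**
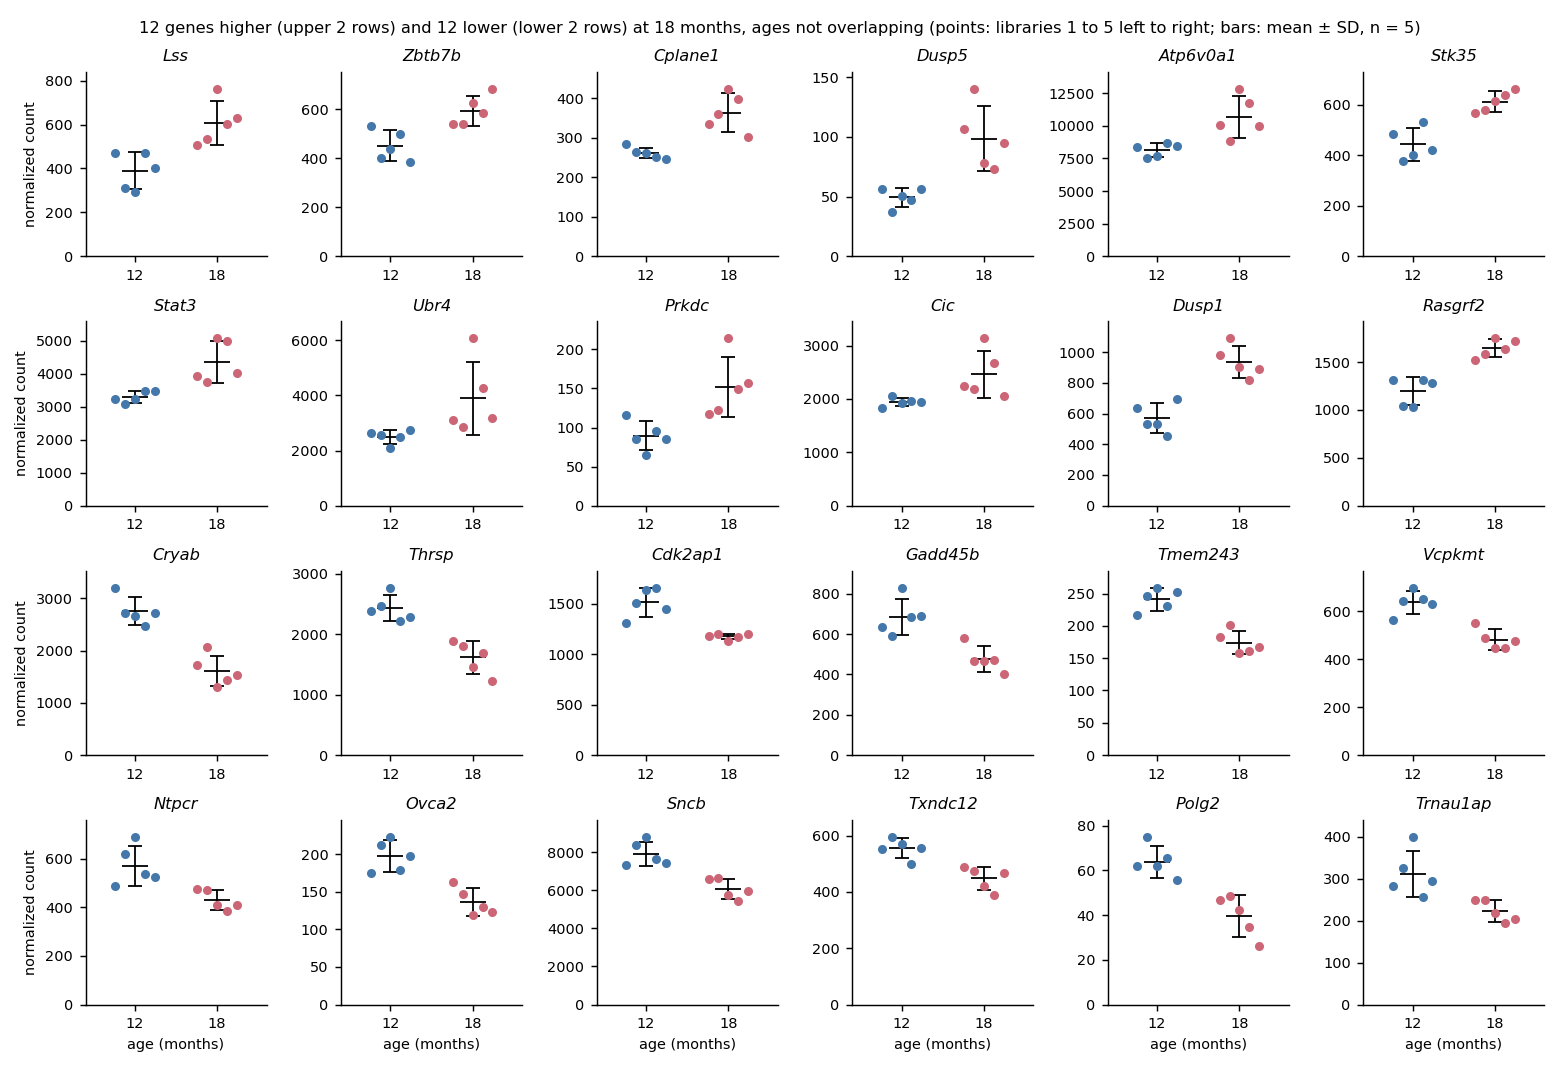
Normalized count (linear axis from 0) of the 24 genes in each of the 10 libraries, with replicates 1 to 5 from left to right and bars for the mean ± SD of 5 libraries at each age in months. The ages do not overlap in any panel because the genes were chosen so, and the gap is wide for Cryab and Dusp5 and narrow for Zbtb7b and Prkdc.

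Nos1ap, an adaptor of neuronal nitric oxide synthase (chromosome 1, 170302668 to 170589861, minus strand), had the smallest p of all genes, an adjusted 0.0689. It is named after its values were seen, because its ages met and the rule passed it over. It measured 727, 632, 639, 911 and 636 at 12 months and 1103, 893, 1698.9, 1397 and 1396 at 18 months, so that only 18-month replicate 2 dipped under 12-month replicate 4, and its log2 fold change was 0.87 ± 0.16. It was the 1 gene past edgeR's threshold when 12-month replicate 4 was left out (adjusted p = 0.0296) or 18-month replicate 2 was (adjusted p = 0.00919). Nos1 itself, the enzyme to which this adaptor binds and a marker of preganglionic cells, measured 1675, 1134, 1252, 1634 and 1694 at 12 months and 1709.8, 1822, 3085, 2279 and 1766 at 18 months (log2 fold change 0.53 ± 0.19, adjusted p = 0.228). It was the 1 gene of 11 in the list of cholinergic interneurons and preganglionic neurons with an unadjusted p under 0.05 (median 0.10). The ages of Nos1 did not overlap, by a margin of few counts, and 18-month replicate 3 was the highest.

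Libraries of the same age differed widely. The first principal component of the 10 libraries held 58.7% of the variance over 12310 genes with a mean of at least 50. It set 18-month replicates 3, 4 and 5 at one end (scores of 45.3, 47.2 and 32.3) and 12-month replicates 2 and 3 at the other (-38.6 and -41.3). The 18-month replicates 1 and 2, at -26.8 and -25.1, lay beside 12-month replicate 5 at -19.9. Chat itself ran along this axis. It measured 866, 202, 177, 948 and 284 at 12 months and 414, 445, 2132, 2075 and 1711 at 18 months, with a log2 fold change of 1.45 ± 0.56 and an adjusted p of 0.248 in edgeR's test. The ages overlapped, since 12-month replicates 1 and 4 held more Chat RNA than 18-month replicates 1 and 2.

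**Figure D2:**
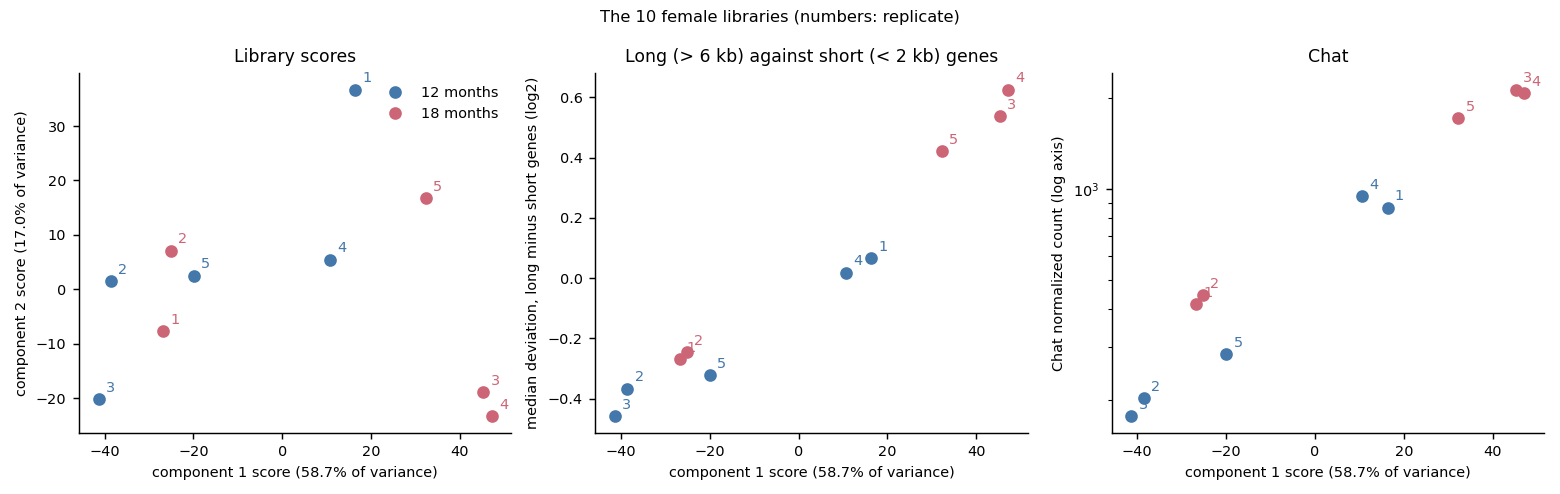
Scores of the 10 libraries on the first component plotted against those on the second (left), against the median log2 deviation of genes over 6000 bases minus that of genes under 2000 bases (middle), and against the normalized count of Chat on a log axis (right), with blue for 12 and red for 18 months and numbers for replicates. From left to right along the first component Chat goes from 177 counts in 12-month replicate 3 to 2075 in 18-month replicate 4, and 18-month replicates 1 and 2 lie among the 12-month libraries.

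Transcript length went with the same axis. The median log2 fold change climbed from -0.32 over 1486 genes with at most 1000 bases of exon to 0.15 over 865 genes with more than 12000, and was -0.02 over all genes tested. In the shortest class 36 genes were higher and 196 lower at an unadjusted p under 0.05, and in the longest class 237 were higher and 13 lower. Library by library, the median deviation of the 4119 genes over 6000 bases minus that of the 1685 genes under 2000 bases was 0.537, 0.626 and 0.421 (log2) in 18-month replicates 3, 4 and 5. It was -0.269 and -0.247 in 18-month replicates 1 and 2, inside the range of -0.459 to 0.0652 of the 12-month libraries. With offsets for transcript length in the fit, the medians of the 8 length classes lay between -0.01 and 0.12. Length here, as in all offsets below, is the summed length of all annotated exons of a gene, not that of the transcripts present. Of the genes at an unadjusted p under 0.05, 1500 of 1500 higher ones stayed higher with these offsets and 1403 of 1452 lower ones stayed lower. They were chosen at that p on the same libraries, so a kept sign says little about the part of length. With the offsets 2462 genes had an unadjusted p under 0.05 in edgeR's test, in place of 2952. Of the 12 lower genes named by rule, Vcpkmt went from -0.40 to -0.02 (adjusted p = 0.935 with the offsets). Gadd45b went from -0.53 to -0.25 and Cdk2ap1 from -0.36 to -0.18. Only Polg2 (-0.72) and Tmem243 (-0.54) did not shrink among these lower genes. The 12 higher genes lay between 0.21 (Cic) and 1.08 (Dusp5) with the offsets, and only Dusp5 and Dusp1 did not shrink. The part of transcript length in each result was not tested beyond this.

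**Figure D3:**
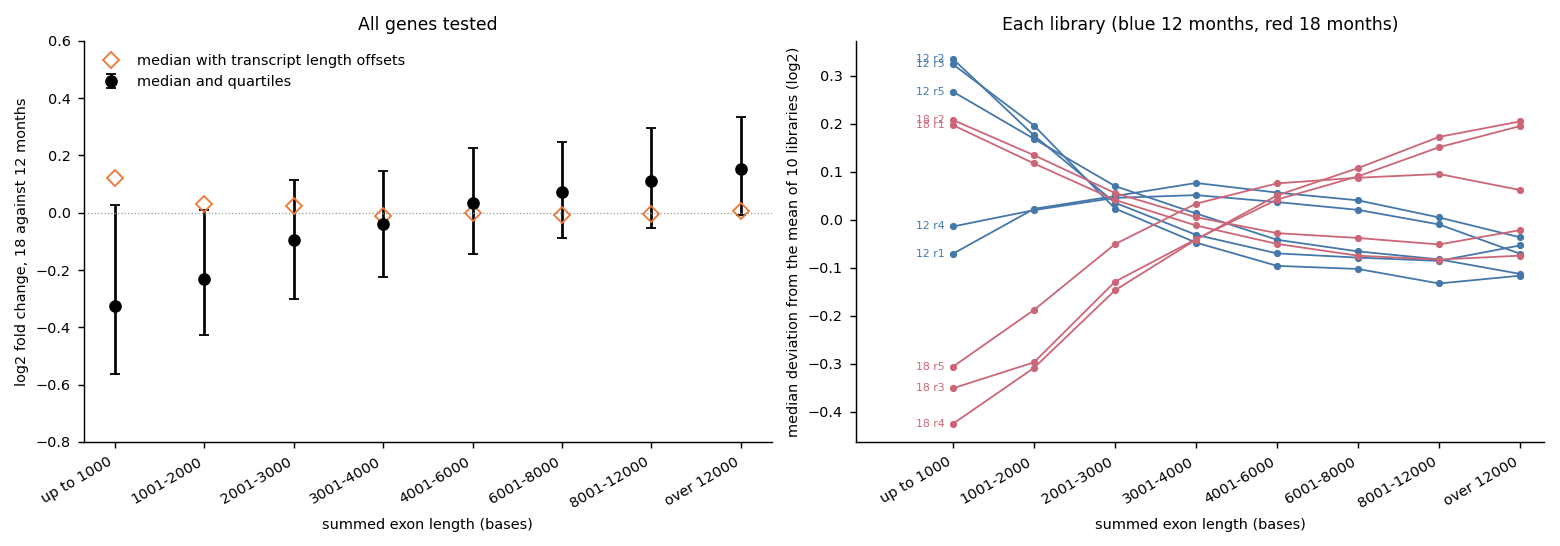
Median log2 fold change of 18 against 12 months by class of summed exon length in bases (left; bars are quartiles over genes, diamonds the medians with transcript length offsets), and the median log2 deviation of each class in every library (right; blue 12 and red 18 months). Short genes are lower and long genes higher in 18-month replicates 3, 4 and 5, while 18-month replicates 1 and 2 run with 12-month replicates 2, 3 and 5.

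Motor neuron identity genes had members on both sides. Of 28 tested genes of the list, 5 were higher and 2 lower at an unadjusted p under 0.05, and the median log2 fold change was 0.10 (0.13 with length offsets) against -0.02 over all genes. The members counted were 17.9% and 7.14% of the list, where 8.58% of all genes tested were higher and 8.31% lower at that p, and counts of the lists below are read against these shares. The shares also changed with exon length, as in the length classes above. Slc5a7, the choline transporter, measured 13200.0, 11848, 11345, 15650.1 and 13851 at 12 months and 14342, 13905, 21674, 22245 and 17188 at 18 months (log2 fold change 0.44 ± 0.15, adjusted p = 0.227). Only 18-month replicates 3, 4 and 5 exceeded all 12-month libraries. Slc18a3, the vesicular transporter, was also led by 18-month replicates 3 and 4, with 8563 to 15497 at 12 months and 10119 to 20202 at 18 months and a log2 fold change of 0.33 ± 0.24. The developmental motor neuron factors Mnx1 and Isl1 were at log2 fold changes of -0.19 and -0.06, and Prph at -0.23, with adjusted p from 0.457 to 0.853. Ret and Gfra1, the signalling receptor and co-receptor for glial cell line-derived neurotrophic factor, were higher at log2 fold changes of 0.45 ± 0.17 and 0.70 ± 0.27. Gfra1 measured 3066, 1807, 1842, 3136 and 2874 at 12 months and 2299, 2458, 5624, 6362 and 3980.4 at 18 months, again with replicates 3, 4 and 5 of 18 months on top.

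The lists of receptors and channels had positive medians. Their median exon lengths ran from 3628 bases in the monoamine and acetylcholine receptors to 8334 in the channels, against 3917 over all genes. Among voltage-gated channels, 15 of 58 were higher and 0 lower at an unadjusted p under 0.05, with a median log2 fold change of 0.19 (0.09 with length offsets). The 3 with the smallest p were all calcium channel subunits. Cacnb2, the auxiliary beta subunit, measured 593, 503, 507, 618 and 513 at 12 months and 563, 560.1, 987, 1034 and 826 at 18 months (log2 fold change 0.54 ± 0.16), Cacna1b, the pore of the N-type channel, had a log2 fold change of 0.52 ± 0.15, and Cacna1c, an L-type pore, 0.45 ± 0.13. Their ages overlapped, because 18-month replicate 1 lay in the 12-month range of all 3. Glutamate receptors counted 5 higher and 0 lower of 33 (median 0.20, 0.18 with length offsets). Without 18-month replicate 3 the medians of the channels and of the glutamate receptors were 0.099 and 0.10, and in 18-month replicates 1 and 2 the median deviations were -0.0835 and -0.159 for channels and -0.140 and -0.237 for glutamate receptors. Glycine and GABA receptors counted 4 higher and 0 lower of 22 (median 0.15, 0.07). Gabrb2, a subunit of the GABA-A receptor, varied widely, 53.8, 10.1, 9.54, 50.1 and 15.5 at 12 months and 21.9, 19.2, 171, 191 and 102 at 18 months, with a log2 fold change of 1.84 ± 0.67 with an adjusted p of 0.234. It was high in 18-month replicates 3, 4 and 5, intermediate in 12-month replicates 1 and 4 and low in the other 5 libraries.

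Receptors for monoamines and acetylcholine had 4 higher and 1 lower members of 31 (median 0.29, 0.22 with length offsets). Adra1a, the alpha-1A adrenergic receptor, through which noradrenaline excites motor neurons, was at 100.4, 94.4, 85.9, 102 and 68.3 at 12 months and 71.5, 75.4, 262, 267 and 134 at 18 months (log2 fold change 0.85 ± 0.28). Here 18-month replicates 3, 4 and 5 led, and 18-month replicates 1 and 2 lay within the 12-month range. Chrnb2, a nicotinic receptor subunit, was higher by 0.32 ± 0.13. The 1 lower member was Htr1b, an inhibitory serotonin receptor, at 104, 83.4, 77.9, 115 and 83.8 at 12 months and 45.2, 62.1, 45.1, 78.9 and 80.7 at 18 months (log2 fold change -0.56 ± 0.19, adjusted p = 0.228). Only 18-month replicates 4 and 5 reached into the 12-month range.

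Presynaptic and axonal genes split by gene. In the vesicle release list 7 of 37 were higher and 1 lower (median 0.10). Sv2c, a vesicle protein and the receptor for botulinum toxin A, measured 10766, 10079.5, 9985, 11620.4 and 10219 at 12 months and 12046, 10961, 16142, 15295 and 12207 at 18 months (log2 fold change 0.34 ± 0.09), whereas Snap25, the SNARE protein of the release machinery, had a log2 fold change of -0.20 ± 0.08. In the transport and cytoskeleton list 11 of 47 were higher and 4 lower (median -0.04). Dync1h1, the heavy chain of the motor that carries cargo back to the cell body, measured 13386, 17928, 14195, 13695 and 13459 at 12 months and 14927, 17328, 25750.5, 21270.5 and 16842 at 18 months (log2 fold change 0.40 ± 0.13). Kif1a, a motor for outward transport of vesicle precursors, had a log2 fold change of 0.46 ± 0.15. Stmn4, which destabilises microtubules, was lower with no overlap, 2446, 2394, 2099, 1779 and 1818 at 12 months and 1686, 1748, 994, 903 and 1287 at 18 months (log2 fold change -0.67 ± 0.24, adjusted p = 0.228). Genes of amyotrophic lateral sclerosis and other motor neuron diseases were 8 higher and 4 lower of 45, with a median of 0.00. Dync1h1 was counted in both lists, and Pfn1, an actin regulator, was at -0.53 ± 0.18. Neurotrophic factors and their receptors had 7 higher and 1 lower of 41, among them Ntrk3, the receptor for neurotrophin-3, at 0.24 ± 0.08.

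Clustered protocadherins, adhesion proteins whose combinations give neurons a surface identity, had the highest median of the pathway lists. Of 30 tested members of the beta and gamma clusters, 14 were higher and 0 lower at an unadjusted p under 0.05, and 4 did not overlap between the ages. These were 46.7% and 13.3% of the members, against 8.58% and 0.835% of all genes tested. The median log2 fold change was 0.53 and with length offsets 0.51, and members ranged from -0.24 to 2.55. Pcdhb7 measured 233, 188, 153, 194 and 182 at 12 months and 267, 262, 270.4, 284 and 268 at 18 months (log2 fold change 0.51 ± 0.14, adjusted p = 0.223), with all 18-month libraries within a narrow band above the 12-month ones. Pcdhb9 and Pcdhb10 had log2 fold changes of 0.53 ± 0.17 and 0.41 ± 0.13. The members sit side by side on 1 chromosome, resemble each other in sequence and, in the gamma cluster, share their last exons, so counts can be split among them and they are not independent. The median deviation of the list was highest in 18-month replicates 3, 4 and 5 (0.541, 0.553 and 0.345), as on the first component, and negative in 18-month replicates 1 and 2.

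Genes of mitochondrial respiration and protein synthesis had negative medians. Of 75 nuclear genes of oxidative phosphorylation, 26 were lower and 1 higher at an unadjusted p under 0.05 (34.7% lower, against 8.31% of all genes), and the median log2 fold change was -0.46. With length offsets the median was -0.20, and it was negative under all 22 alternatives. Sdhd, an anchor subunit of complex II, measured 3144, 3826, 4492, 3341 and 3543 at 12 months and 3333, 3249.8, 2239.7, 2424 and 2378 at 18 months (log2 fold change -0.43 ± 0.13, adjusted p = 0.223). Ndufc1 and Ndufb5, subunits of complex I, had log2 fold changes of -0.70 ± 0.23 and -0.46 ± 0.16. Low values were held by 18-month replicates 3, 4 and 5, whose median deviations were -0.481, -0.721 and -0.627 (log2). In 18-month replicates 1 and 2 they were 0.294 and 0.248, above 12-month replicates 1 and 4 at -0.192 and -0.0932. The 10 protein genes of the mitochondrial genome that were tested had 0 higher and 0 lower, and a median of -0.33 that was 0.06 with length offsets. Among them mt-Co1, of complex IV, had a log2 fold change of 0.67 ± 0.47.

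Cytosolic ribosomal protein genes had 5 lower and 0 higher members of 79 at an unadjusted p under 0.05, and 77 of the 79 had a negative log2 fold change. The share of lower members, 6.33%, did not exceed the 8.31% of all genes. Their median was -0.39, or -0.18 with length offsets, and the median deviations of 18-month replicates 1 and 2 were 0.290 and 0.381, on the side of the higher 12-month libraries. Rps29 measured 2088, 4407, 4681, 2199.9 and 3631 at 12 months and 3109, 3213, 1364, 1232 and 1539 at 18 months (log2 fold change -0.70 ± 0.31). Rpl22, the gene that carries the tag, had a log2 fold change of -0.36 ± 0.17 with an adjusted p of 0.283, with 1455 to 2268 counts at 12 months and 1084 to 1924 at 18 months. Proteasome subunits had 5 lower and 0 higher of 34 (median -0.17, -0.10 with length offsets), among them Psmd11 at -0.17 ± 0.07. Of oxidative stress genes 9 were lower and 1 higher of 38 (median -0.31, -0.17). Gpx1, which reduces peroxides, was at -0.57 ± 0.21, and Mt3, a metal-binding protein of the nervous system, at 9948, 16689.9, 19970.1, 9123 and 13583 at 12 months and 14019.6, 11623, 5119.8, 4686 and 5741 at 18 months (log2 fold change -0.75 ± 0.31). Both were lowest in 18-month replicates 3, 4 and 5. Chaperones were 5 lower and 0 higher of 35, Cryab at their head and the mitochondrial chaperonin Hspd1 at -0.32 ± 0.14. The lysosome and autophagy list split into 5 higher and 10 lower of 47, with Atp6v0a1 on the higher side and Gabarap, a protein of autophagosome membranes, at -0.46 ± 0.14 on the lower.

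**Figure D4:**
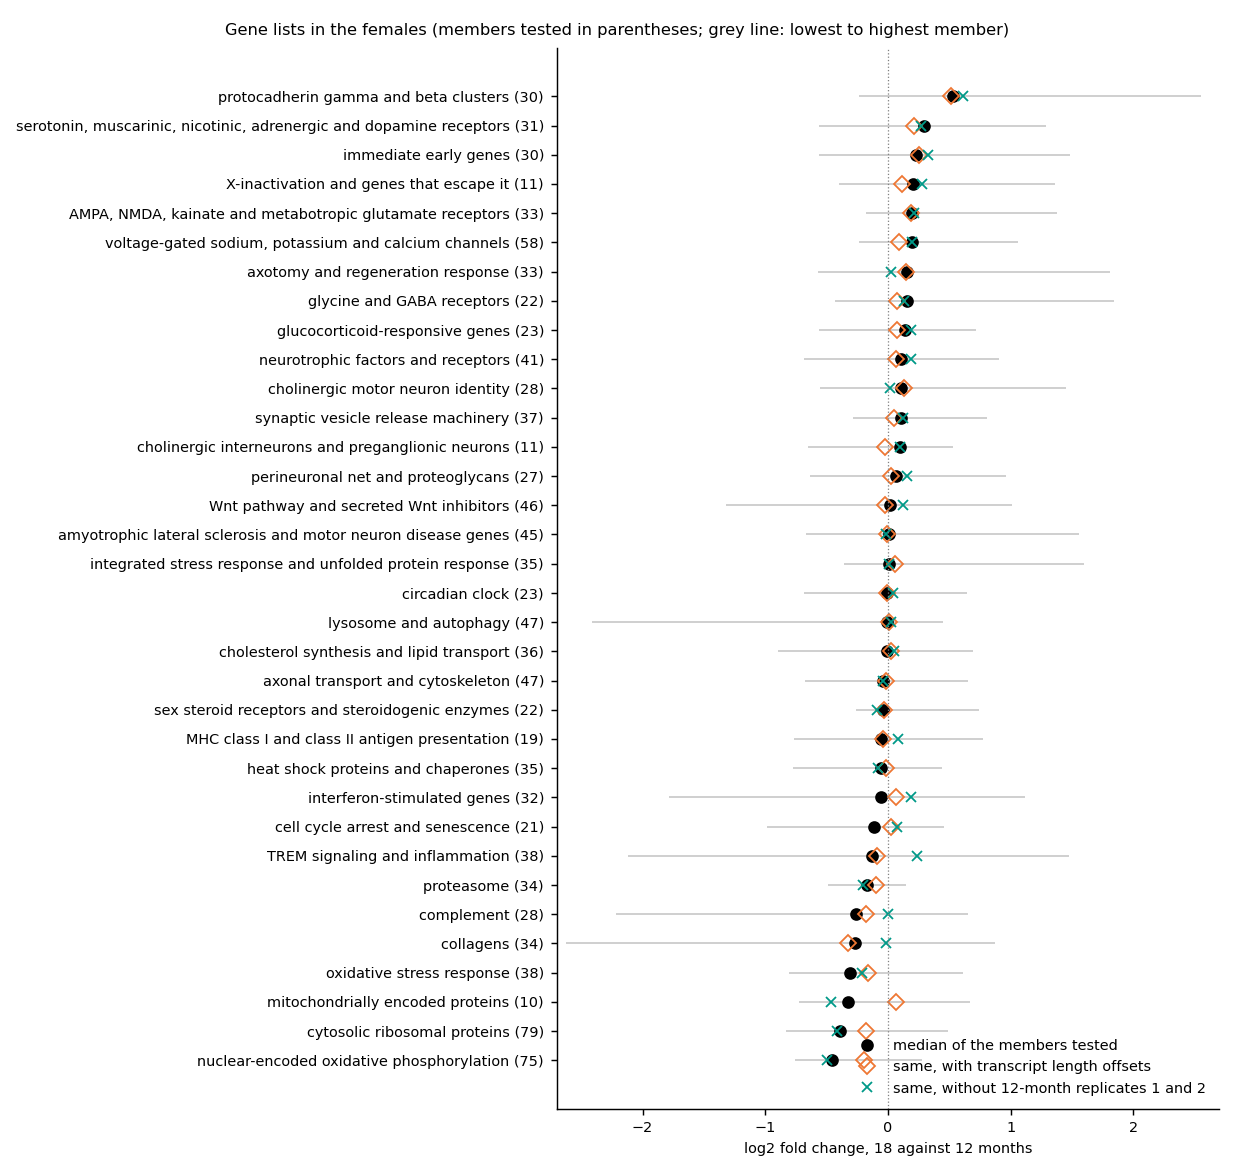
Median log2 fold change of 18 against 12 months over the tested members of each pathway list other than Y-linked genes (black), with transcript length offsets (orange diamonds) and without 12-month replicates 1 and 2 (green crosses); grey lines span the members. Of the lists plotted, protocadherins stand highest at 0.53 and oxidative phosphorylation lowest at -0.46, and the offsets move the latter to -0.20.

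Immediate early genes are those that neurons switch on within minutes of activity, and none of them passed the adjusted threshold. Of 30 tested, 7 were higher and 2 lower at an unadjusted p under 0.05, with a median log2 fold change of 0.23 (0.25 with length offsets, 0.094 without 18-month replicate 2). Nr4a1, a nuclear receptor induced by calcium entry, measured 92.3, 72.5, 57.3, 51.8 and 71.0 at 12 months and 239, 235, 73.7, 109 and 147 at 18 months (log2 fold change 1.21 ± 0.28, adjusted p = 0.167). Fos, a subunit of the factor AP-1, measured 454, 401, 523, 383 and 434 at 12 months and 1259, 1290.2, 575, 521 and 623 at 18 months (log2 fold change 0.96 ± 0.28, adjusted p = 0.223). Both were highest in 18-month replicates 1 and 2, which had the lowest scores of the 18-month libraries on the first component. The 12-month replicates 2 and 3, with lower scores still, stood at 72.5 and 57.3 for Nr4a1 and at 401 and 523 for Fos. For Nr4a1 only 18-month replicate 3 reached into the 12-month range, and for Fos only replicate 4 did. The promoters of Dusp1, Nr4a1 and Fos, the 3 members with the smallest p, are shown because these genes were high together and because they are textbook targets of the factor CREB. The windows run from 250 bases before to 50 bases after the start of transcription (RefSeq, GRCm38.p6), 5′ to 3′ on the strand of the gene, and capitals mark the core TGACG of the cyclic AMP response element on either strand, which reads CGTCA on the other.
Dusp1 (chr17:26508423-26508722, minus strand): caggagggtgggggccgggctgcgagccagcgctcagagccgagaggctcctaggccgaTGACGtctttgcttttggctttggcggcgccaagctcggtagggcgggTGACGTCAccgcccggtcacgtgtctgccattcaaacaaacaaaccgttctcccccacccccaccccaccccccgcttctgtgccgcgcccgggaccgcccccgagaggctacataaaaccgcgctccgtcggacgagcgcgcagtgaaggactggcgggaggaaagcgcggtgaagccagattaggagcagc
Nr4a1 (chr15:101266596-101266895, plus strand): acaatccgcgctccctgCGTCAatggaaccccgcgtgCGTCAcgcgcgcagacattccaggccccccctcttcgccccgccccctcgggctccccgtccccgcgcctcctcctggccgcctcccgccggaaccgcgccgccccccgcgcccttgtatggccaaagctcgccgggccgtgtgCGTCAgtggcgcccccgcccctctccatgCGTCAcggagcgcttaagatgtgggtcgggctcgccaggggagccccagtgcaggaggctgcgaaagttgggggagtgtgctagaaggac
Fos (chr12:85473640-85473939, plus strand): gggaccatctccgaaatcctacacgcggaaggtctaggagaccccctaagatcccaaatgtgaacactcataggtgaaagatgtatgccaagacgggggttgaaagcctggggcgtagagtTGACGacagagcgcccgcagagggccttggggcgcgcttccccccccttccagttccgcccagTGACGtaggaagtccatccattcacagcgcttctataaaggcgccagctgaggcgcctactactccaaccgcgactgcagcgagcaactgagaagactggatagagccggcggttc

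The Dusp1 window held the core at 3 places, 2 of which overlap in 1 full site, TGACGTCA, that starts 143 bases before the start of transcription. This window lies inside the span of Dusp1 given above, which came from another annotation (GENCODE M21) and reaches farther upstream. The Nr4a1 window held 4 cores and the Fos window 2, with no full site in either. Of all 32851 promoter windows of that length, 20.8% held the core and 1.79% the full site. Of 23 immediate early genes with a window, 17 held the core in at least 1. This last count is of genes, which can have several windows, so it is not read against the share of windows. A match of letters is a description and was not tested as a site of binding.

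Clock and glucocorticoid genes overlapped in part with this group. The clock list counted 3 higher and 0 lower of 23, with a median of -0.01. Per1, a repressor of the clock that also answers to cyclic AMP and glucocorticoids, measured 613, 563, 606, 493 and 633 at 12 months and 760.1, 910.4, 796, 723 and 720.3 at 18 months (log2 fold change 0.43 ± 0.13, adjusted p = 0.223). Cry2, its partner, measured 2442, 2277, 2301, 2596 and 2593 at 12 months and 2944, 2815, 3661, 3117 and 3147 at 18 months (log2 fold change 0.36 ± 0.11), and the ages overlapped for neither. Nfil3, a repressor of clock output, was higher by 0.64 ± 0.20 and highest in 18-month replicates 1 and 2. Nr3c1, the glucocorticoid receptor, was lower without overlap, 967, 1079, 1086, 868 and 814 at 12 months and 773, 768, 696, 718 and 801 at 18 months (log2 fold change -0.36 ± 0.11, adjusted p = 0.223). Of 23 glucocorticoid-responsive genes 3 were higher, Dusp1 and Per1 among them, and 3 lower.

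The response to axotomy was uneven. Of 33 tested genes 5 were higher and 1 lower at an unadjusted p under 0.05, with a median of 0.16. The median was 0.02 without 12-month replicates 1 and 2 and -0.0079 without 18-month replicate 2, and it was negative under 3 of 22 alternatives, over a range of -0.30 to 0.33. Under limma voom 4 members passed as higher and 7 as lower. Atf3, a factor induced by axon damage, measured 40.9, 29.5, 50.9, 71.3 and 150.2 at 12 months and 238, 316, 134, 130.3 and 151 at 18 months (log2 fold change 1.48 ± 0.67, adjusted p = 0.275). Sprr1a, a growth-associated protein of injured neurons, measured 14.5, 20.2, 27.0, 58.6 and 217 at 12 months and 350.1, 498, 134, 95.1 and 127 at 18 months (log2 fold change 1.80 ± 0.97, adjusted p = 0.323). Both were highest in 18-month replicates 1 and 2, and 12-month replicate 5 stood among the 18-month libraries. Npy, a neuropeptide, had the same high libraries, 63.4, 25.3, 36.6, 76.4 and 313 at 12 months and 166, 454, 62.8, 35.9 and 84.4 at 18 months, and a log2 fold change of 0.61 ± 0.84. Calca, which encodes the peptide CGRP and is named after its values were seen, was high in the same 3 libraries, with 7369, 11453, 10212, 11489 and 24187 at 12 months and 32690.0, 41313, 14525, 9113 and 7979.5 at 18 months (log2 fold change 0.71 ± 0.55). Within the higher range of totals, which leaves out 18-month replicates 1, 2 and 3 and 12-month replicate 3, the log2 fold changes of Npy and Calca were -0.97 and -0.65. Ecel1, an injury-induced peptidase, had another order of libraries, 3619.6, 2406, 2578, 3761 and 3859 at 12 months and 4423, 4292, 7069, 6707 and 3868 at 18 months (log2 fold change 0.70 ± 0.20, adjusted p = 0.223). Its ages did not overlap by a margin of few counts, between 12-month replicate 5 and 18-month replicate 5. Socs3, the feedback inhibitor of Stat3, stayed at 32.3 to 61.0 and 30.3 to 47.3 (log2 fold change -0.01 ± 0.33).

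Stress signalling, sterol and growth factor lists were mixed. The integrated stress response counted 5 higher and 0 lower of 35 (median 0.00), and Eif2ak3, the kinase PERK that senses unfolded protein, measured 549, 466, 514, 569 and 590.0 at 12 months and 697, 593, 769, 763 and 687 at 18 months (log2 fold change 0.38 ± 0.15). In cholesterol and lipid genes, 6 of 36 were higher and 0 lower, while the median was -0.01. Besides Lss these included Hsd17b7, an enzyme of sterol synthesis, at 789, 896, 1051, 965 and 1348 at 12 months and 1459, 1428, 1454, 1226 and 1172 at 18 months (log2 fold change 0.42 ± 0.13), and Acaca, the first enzyme of fatty acid synthesis, at 0.39 ± 0.13. Wnt genes had 1 higher and 4 lower of 46, shares of 2.17% and 8.70% beside the 8.58% and 8.31% of all genes, with the ligand Wnt4 at -0.98 ± 0.36 and the secreted inhibitor Sfrp1 at -0.08 ± 0.15. Ppp1r1c, an inhibitor of protein phosphatase 1, was at -0.44 ± 0.20 (adjusted p = 0.274). Extracellular matrix of the perineuronal net had 3 higher and 0 lower of 27 (median 0.06), led by Tnr, tenascin-R, at 976, 538, 458, 1032 and 717 at 12 months and 744, 771, 2375, 2156 and 1206 at 18 months (log2 fold change 0.96 ± 0.33), with the order of the first component.

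The difference of the estrogen receptor was smaller than the spread of the libraries. The estrogen receptor Esr1 had 104 to 130.4 and 89.0 to 168 counts (log2 fold change -0.03 ± 0.17), with an adjusted p of 0.940. Of 22 tested genes of steroid receptors and steroid synthesis, 2 were higher and 2 lower. Xist varied widely from library to library, 219, 365, 77.9, 81.5 and 179 at 12 months and 35.0, 415, 120.2, 655 and 195 at 18 months (log2 fold change 0.62 ± 0.72, adjusted p = 0.633), and 2 genes of X-inactivation and escape were higher and 1 lower of 11. In the senescence list 1 was higher, Ccnd1, a cyclin of G1, at 0.37 ± 0.16, and 3 were lower of 21. Cdkn2a, which encodes the senescence marker p16, measured 64.2, 138, 197, 90.9 and 168 at 12 months and 356, 347, 43.7, 68.3 and 92.7 at 18 months (log2 fold change 0.46 ± 0.58, adjusted p = 0.665). Its high libraries were 18-month replicates 1 and 2 (log2 fold change -0.49 within the higher range of totals), and the other 3 of 18 months lay between 43.7 and 92.7.

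Transcripts of other cell types were present in unequal amounts, and some of the largest log2 fold changes were found among them. Microglial genes were lower at 18 months in 14 of 17 cases at an unadjusted p under 0.05, with a median log2 fold change of -1.95. The summed level of the list was 418, 1007, 49.0, 158 and 113 CPM at 12 months and 83.2, 147, 70.1, 51.6 and 123 at 18 months. It was high in 12-month replicates 1 and 2, and without these the median was -0.15. C1qa, a component of complement made by microglia, measured 1287, 4161, 111, 507 and 357 at 12 months and 306, 566, 139, 60.6 and 327 at 18 months (log2 fold change -2.21 ± 0.84, adjusted p = 0.244). Siglech, Cx3cr1 and Aif1, markers of the cell type, had log2 fold changes of -2.64 ± 0.62, -2.51 ± 0.72 and -2.22 ± 0.60, and none of the adjusted p passed. The complement list had 2 higher and 5 lower of 28, with a median of -0.26 that was -0.00300 without those 2 libraries. For TREM signalling and inflammation, 1 higher and 3 lower of 38, the median turned from -0.13 to 0.24. Its member Tyrobp, the adaptor of TREM receptors, measured 143, 323, 3.18, 59.4 and 27.3 at 12 months and 43.8, 78.3, 16.4, 19.01 and 34.4 at 18 months (log2 fold change -1.58 ± 0.79, or 0.26 without those 2 libraries).

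Interferon-stimulated genes had 3 higher and 3 lower members of 32, with a median of -0.06 that was 0.19 without both libraries, and Ifit3b was lower without overlap, 132, 83.4, 76.3, 76.4 and 76.5 at 12 months and 61.3, 70.9, 34.1, 50.7 and 73.2 at 18 months (log2 fold change -0.61 ± 0.26). Antigen presentation had 0 higher and 1 lower of 19. Gfap measured 10701, 1262, 908, 3449.8 and 2135 at 12 months and 1869, 2342, 2391, 1637 and 6791 at 18 months (log2 fold change -0.30 ± 0.54), high in 12-month replicate 1 and 18-month replicate 5. Its log2 fold change was 0.65 without 12-month replicate 1. Vim, an intermediate filament, Cd63, a vesicle membrane protein, and Serpinb1a, a protease inhibitor, had log2 fold changes of 0.08 ± 0.43, -0.39 ± 0.30 and -0.13 ± 0.45, with adjusted p from 0.452 to 0.931. Sox9, an astrocyte factor, was at -0.68 ± 0.25, and the summed astrocyte list ranged over 2163 to 3404 CPM at 12 months and 1392 to 2527 at 18 months. For oligodendrocytes the ranges were 1101 to 4571 and 1013 to 2591, with 12-month replicate 1 the highest.

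Replicate 1 of 12 months also stood highest in markers of meninges and fat. Ogn, of meningeal fibroblasts, was at 113 in that library and at most 26.6 in any other. The summed list of meningeal fibroblasts was 354, 103, 49.4, 119.5 and 107 CPM at 12 months and 64.7, 149, 42.1, 40.6 and 98.1 at 18 months. Genes of adipose tissue, named after their values were seen, followed. Ucp1, the uncoupling protein of brown fat, measured 507, 16.9, 0, 0.849 and 0.910 at 12 months and 1.46, 5.91, 0, 1.41 and 0 at 18 months. Fabp4, a fatty acid carrier of adipocytes, measured 1485, 122, 11.1, 8.49 and 28.2 at 12 months and 32.1, 50.2, 8.19, 4.93 and 10.5 at 18 months, and Car3, a carbonic anhydrase of fat and muscle, 434, 32.9, 14.3, 5.09 and 0.910 at 12 months and 2.92, 1.48, 5.46, 2.82 and 5.23 at 18 months. All 3 were high in 12-month replicate 1 alone, their edgeR log2 fold changes were -6.04, -4.07 and -4.70, and their adjusted p lay at 0.167, 0.212 and 0.167. The vessel list had 3 lower and 0 higher genes of 14, although its median was 0.50. That median was -0.36 without 18-month replicate 5 and 1.02 without 12-month replicate 1. Rgs5 and Vtn, both of pericytes, were at -0.89 ± 0.30 and -1.89 ± 0.66, and collagens had 1 higher and 5 lower of 34. Of these, Col4a2, of basement membranes, was at 0.87 ± 0.37, and Col16a1, lower without overlap, at -0.64 ± 0.26.

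Blood cell transcripts were high in some 18-month libraries. The erythroid list summed to 29.6, 205, 107, 43.9 and 237 CPM at 12 months and 92.8, 363, 65.2, 12.8 and 2221 at 18 months, with 18-month replicate 5 far above the rest. Hba-a1, an alpha-globin with a near-identical copy, measured 204, 1291, 692, 302 and 1455 at 12 months and 592, 1963, 522, 105 and 14627 at 18 months, and Alas2, the first enzyme of haem synthesis in red cells, 19.3, 32.0, 22.3, 16.1 and 73.7 at 12 months and 33.6, 81.3, 51.9, 12.7 and 1025 at 18 months (log2 fold changes 2.18 ± 0.93 and 2.89 ± 0.85). Without 18-month replicate 5 the median log2 fold change of the list was 0.26 in place of 2.18. The neutrophil list summed to 12.5, 22.5, 21.9, 9.32 and 40.1 at 12 months and 88.1, 223, 4.24, 6.98 and 12.0 at 18 months, high in 18-month replicates 1 and 2. S100a8, of neutrophil granules, measured 26.5, 73.3, 50.9, 17.8 and 81.0 at 12 months and 315, 1206, 2.73, 0.704 and 11.2 at 18 months (log2 fold change 2.60 ± 1.19), and Ltf, lactoferrin, had the same high pair of libraries (log2 fold change 2.53 ± 1.12). Antibody genes marked the same pair. Ighg2c, a constant region of IgG, measured 13.6, 11.0, 11.1, 22.9 and 24.6 at 12 months and 621, 3754, 13.7, 10.6 and 6.72 at 18 months (log2 fold change 5.69 ± 1.21, adjusted p = 0.164), and Igkc, the kappa constant region, 43.4, 119.7, 25.4, 13.6 and 107 at 12 months and 636, 3003, 2.73, 7.75 and 5.98 at 18 months (log2 fold change 3.53 ± 1.21). Both direction and size rested on this pair. The higher range of totals leaves out the pair, but also 18-month replicate 3 and 12-month replicate 3. Within it the log2 fold changes were -3.03, -3.48, -1.02 and -3.32 in that order, and under limma voom all 4 were negative too. For Igkc, 18-month replicates 3, 4 and 5 were below the 12-month range. Trac, a T cell receptor constant region, was lower without overlap, with 9.56 to 20.4 against 21.9 to 31.8 counts (log2 fold change -0.79 ± 0.41). In 18-month replicates 1 and 2 Fos, Nr4a1, Atf3, Sprr1a and Cdkn2a were highest, and the part of blood cells in those values was not tested.

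**Figure D5:**
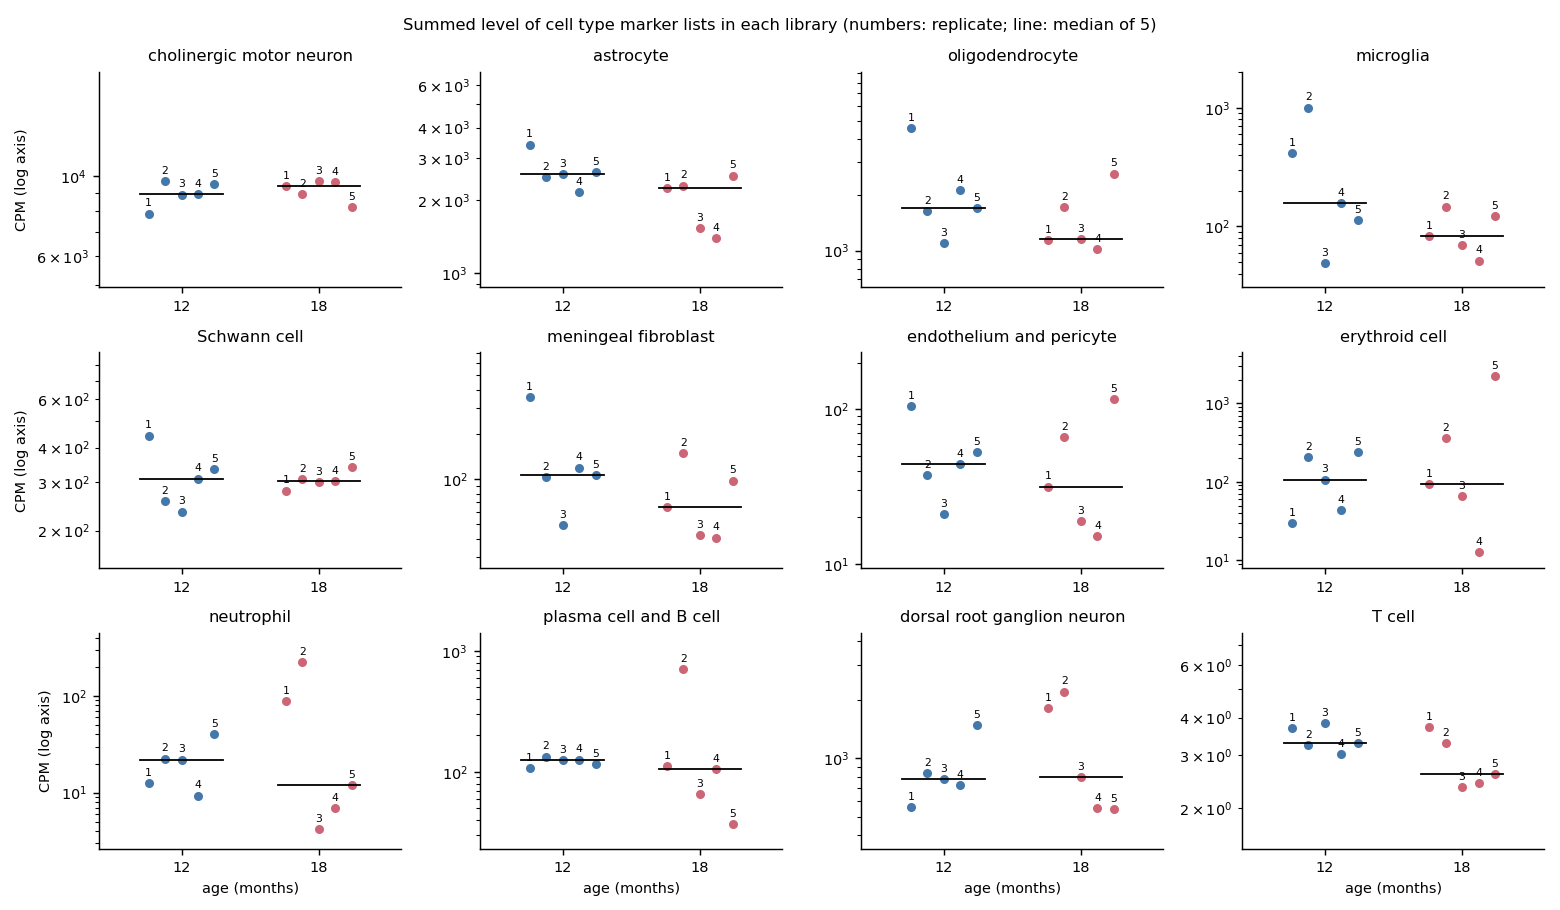
Summed CPM (log axis) of cell type marker lists in each library, with numbers for replicates and a line for the median of 5 libraries at each age in months. The sum of the 8 cholinergic motor neuron genes stays within 7884 to 9715, which hides the range of Chat alone, 177 to 2132 normalized counts. Microglial genes are high in 12-month replicates 1 and 2, neutrophil genes in 18-month replicates 1 and 2 and erythroid genes in 18-month replicate 5.

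The 8 cholinergic motor neuron genes Chat, Slc18a3, Slc5a7, Mnx1, Isl1, Isl2, Prph and Nefh summed to 7884, 9679, 8895, 8907 and 9519 CPM at 12 months and 9411, 8907, 9715, 9652 and 8233 at 18 months. The sum does not show its single members, and Chat alone ran from 177 to 2132 normalized counts in these libraries. The excitatory and inhibitory interneuron lists ranged over 162 to 211 and 200.4 to 425 at 12 months and over 139.5 to 203 and 274 to 407 at 18 months. The dorsal root ganglion list, at 557 to 1486 and 548 to 2202, was set by Calca, which motor neurons express as well. Skeletal muscle and T cell genes reached at most 16.8 and 3.83 CPM in sum. The osteoblast list was at 35.2 to 41.0 and 37.1 to 41.4, with 1 of its 10 genes, Ifitm5, at 0 counts in all 10 libraries. The lists of Schwann cells (234 to 443 and 279.6 to 340.2), ependymal cells (45.2 to 91.2 and 48.1 to 72.1), oligodendrocyte precursors (68.9 to 133 and 61.6 to 91.4) and vessels (20.9 to 105 and 15.1 to 116) overlapped between the ages.

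Whether XX and XY mice differed in this step was tested as an interaction, with 5 libraries of 18-month and 4 of 12-month males. edgeR's test of the female minus male difference passed for 0 of 17481 genes (0%), with a smallest adjusted p of 0.56, and 1022 genes (5.85%) had an unadjusted p under 0.05. DESeq2 called 3 and limma voom 0. The unadjusted count was 1561 without 18-month female replicate 1, 1573 without replicate 1 of the 12-month males and 1787 without replicate 5 of the 18-month males. The female and male comparisons share no library. Of the 24 genes named for their separation in females, 22 had a male log2 fold change of the same sign, as had 61.6% of all genes tested. Dusp5 and Dusp1 were the 2 that did not. Male log2 fold changes went with exon length too, with medians of -0.22 over genes of at most 1000 bases and 0.14 over 12000. The part of length in this agreement of signs was not tested. In males Dusp1 was at -0.28 ± 0.19 and Dusp5 at -0.23 ± 0.24, and the female minus male differences were 0.99 ± 0.26 and 1.21 ± 0.34 on the log2 scale, with adjusted p of 0.674 and 0.765. The genes named for the sex difference were taken by rule among those whose female ages did not overlap. That rule favours a large female part, so its size is no result about them. They need not have the smallest p of all genes. Next on the higher side came Serpinb9, an inhibitor of granzyme B (0.72 ± 0.21), Slc2a13, a myo-inositol transporter (0.49 ± 0.16), and Dnah1, a ciliary dynein (1.00 ± 0.37). On the lower side they were Thrsp (-0.54 ± 0.18), Gadd45b (-0.51 ± 0.17), Ovca2 (-0.48 ± 0.18), Il17rc, a receptor of interleukin 17 (-0.68 ± 0.23), and Slc25a15, the mitochondrial ornithine carrier (-0.47 ± 0.18). Nos1ap had a log2 fold change of 0.79 ± 0.17 in males, with mean normalized counts of 722 and 1249.

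Levels of the 4 libraries of 3-month-old females place the 12- and 18-month values. Cryab stood at 2405 ± 189 (SD, n = 4) at 3 months, 2756 ± 271 (SD, n = 5) at 12 and 1615 ± 291 (SD, n = 5) at 18. Dusp1 was at 728 ± 148 (SD, n = 4), 569.8 ± 96.0 (SD, n = 5) and 936 ± 104 (SD, n = 5), and Lss at 434 ± 93.05 (SD, n = 4), 389 ± 84.9 (SD, n = 5) and 607 ± 101 (SD, n = 5). Since the genes were chosen for their distance between 12 and 18 months, an extreme 12-month level is no result about them. For Dusp1, Lss and Stk35 the 12-month mean was the lowest of the 3 ages, and for Cryab, Thrsp, Gadd45b and Polg2 it was the highest. Polg2 went from 44.7 ± 2.45 (SD, n = 4) to 64.0 ± 7.13 (SD, n = 5) and 39.7 ± 9.33 (SD, n = 5). Cplane1 and Atp6v0a1 differed little between 3 and 12 months, at 257 ± 32.2 (SD, n = 4) and 8102 ± 632 (SD, n = 4) at 3 months against 262 ± 13.9 (SD, n = 5) and 8149.8 ± 525 (SD, n = 5) at 12 months. The comparisons of 12 and of 18 months with 3 months use the same libraries as those above, and are given as levels only. Chat, at 850.4 ± 144 (SD, n = 4) at 3 months, had a 3-month range of 677 to 1029.7, between the 12-month replicates 2, 3 and 5 and the 18-month replicates 3, 4 and 5.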

How the data were processed

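The authors trimmed the reads and aligned them to GRCm38 by HISAT2. The deposited counts per gene came from HTSeq and are not normalized. Tool versions and the use of strand are not given in the sources used here. Counts of 31 of the 32 libraries were used, and the 10 compared here held 14366779 to 29547303 each. The members and lists were chosen with earlier results of these data known. Genes that averaged 5 counts or more in the 31 libraries were fitted in 7 groups of sex and age with edgeR 4.0.16 in R 4.3.3 (TMM, quasi-likelihood test, Benjamini-Hochberg adjustment, threshold 0.05), a procedure tested on simulated counts. Alternatives, among them DESeq2 1.42.0 and limma 3.58.1, varied the scaling, filter, libraries, totals, replicate block and transcript length. Normalized counts are counts divided by the TMM-scaled library size relative to its mean. Named by rule were 12 genes per direction without overlap (average of 50 counts or more), at most 3 per list by smallest p (average of 20 or more), and preset genes. For the sex difference at most 5 per direction were named, among genes without overlap of the female ages (average of 50 or more). No pair of libraries of the same age agreed within sampling noise (mean chi-square per gene at least 6.35). Pairs across the ages were not compared in this way. Results of some further genes are not reported here.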

Additional observations from a re-analysis of the deposited data

Results flagged for a closer look

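In 28 cases a gene or list had 1 library that lay apart from the other 4 of its age (gap over range above 0.71, Dixon's 95% value for 5 samples). Chance alone flags about 1 in 20 groups. Several of the genes were named because 1 library stood out in them and others mark the same cell type, so their number is not read against that share. They lay in 5 of the 10 libraries.

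Replicate 1 of 12 months held 9 of them. Compared with the other 12-month libraries, Ucp1 was at 507 against 0 to 16.9 normalized counts, Fabp4 at 1485 against 8.49 to 122, Car3 at 434 against 0.910 to 32.9 and Ogn at 113 against 4.77 to 21.2. Gfap stood at 10701 against 908 to 3449.8, Vtn at 957 against 49.3 to 312 and Ifit3b at 132 against 76.3 to 83.4. The meningeal fibroblast list summed to 354 against 49.4 to 119.5 CPM, and the Y-linked gene Ddx3y was lower than in the others, at 1.61 against 7.95 to 10.2 normalized counts. In replicate 2 of 12 months Cx3cr1 was at 1338 against 82.7 to 409, Aif1 at 408 against 39.1 to 69.9 and Dync1h1 at 17928 against 13386 to 14195, and the skeletal muscle list summed to 16.8 against 4.21 to 5.02 CPM. In replicate 5 of 12 months Calca was at 24187 against 7369 to 11489, Npy at 313 against 25.3 to 76.4, Sprr1a at 217 against 14.5 to 58.6 and Alas2 at 73.7 against 16.1 to 32.0 normalized counts.

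Replicate 2 of 18 months held 6. Ighg2c was at 3754 against 6.72 to 621, Igkc at 3003 against 2.73 to 636, S100a8 at 1206 against 0.704 to 315, Ogn at 26.6 against 0 to 5.84 and Ucp1 at 5.91 against 0 to 1.46 normalized counts, and the plasma cell and B cell list summed to 701 against 37.2 to 111 CPM. In replicate 5 of 18 months Hba-a1 was at 14627 against 105 to 1963, Alas2 at 1025 against 12.7 to 81.3 and Gfap at 6791 against 1637 to 2391, the erythroid list summed to 2221 against 12.8 to 363 CPM, and Slc25a15 was lower than in the others, at 362 against 394 to 403 normalized counts. What set these libraries apart was not tested.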

How the results depend on the processing

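Under all alternatives but limma voom (5642 genes), the DESeq2 Wald test (46) and leaving out single libraries (0 to 1), the number of genes past the threshold stayed at 0. The 1 gene was Nos1ap, without 12-month replicate 4 or 18-month replicate 2. For the female minus male difference the DESeq2 Wald test gave 3 and the other alternatives 0. Why the tools differ was not tested. A fit on the lower range of totals was not run, because 12 months has 1 library there. Depth limits the levels of genes at few counts, and the spread of 5 libraries limits every call.

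The labels link same-numbered libraries of the ages by nothing but the number. Their deviations correlated at -0.61, 0.55, -0.34, 0.61 and -0.21 for replicates 1 to 5, which does not settle whether the numbers mark a pairing. With a replicate block 0 genes passed and 2605 had an unadjusted p under 0.05, and for the female minus male difference 0 passed and 1093 had one.

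Among named genes 108 values crossed the threshold under an alternative and 2404 kept their direction and side of it. The leave-out of 12-month replicates 1 and 2 was chosen after the data were seen. The log2 fold changes of some genes changed sign. Under limma voom these were Ltf (-2.80), S100a8 (-2.99), Ighg2c (-0.0290), Igkc (-2.35), Sfrp1 (0.0312), Npy (-0.39), Gfap (0.37), Cdkn2a (-0.68), Esr1 (0.0602) and Calca (-0.13). Within the higher range of totals these were Ltf (-3.48), S100a8 (-3.03), Ighg2c (-1.02), Igkc (-3.32), Npy (-0.97), Vim (-0.15), Cdkn2a (-0.49), Esr1 (0.25) and Calca (-0.65). Without 12-month replicates 1 and 2 these were Tyrobp (0.26), Serpinb1a (0.16), Gfap (0.47) and Fabp4 (0.30). With a term for the range of totals these were Serpinb1a (0.12), Vim (-0.0522) and Gfap (0.0275). With length offsets it was Socs3 (0.0574). With the compared groups alone these were Socs3 (0.0135) and Esr1 (4.47e-04). Without the filter it was Socs3 (0.00176). Over single libraries left out, the values with a change of sign ran, for Hba-a1 from -2.52e-04 to 2.52, Isl1 from -0.15 to 0.0273, Sfrp1 from -0.14 to 0.0246, Npy from -0.27 to 1.63, Socs3 from -0.0912 to 0.17, Serpinb1a from -0.44 to 0.34, Vim from -0.15 to 0.55, Gfap from -0.84 to 0.65 and Esr1 from -0.19 to 0.0543.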
